A study of Mus musculus with 2 samples.

Results

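The acyl-CoA thioesterases of inguinal white adipose tissue, a subcutaneous depot in the groin, were examined as 10 named genes: Acot1, Acot2, Acot3, Acot4, Acot7, Acot8, Acot9, Acot11, Acot12 and Acot13. They were taken by gene symbol, were all measured, each by 1 probe set, and stood among 19938 named genes on the array. The mice were male C57BL/6J littermates kept at 23 °C on standard chow and then, from the age of 9 weeks, given the high-fat diet B15040 for 9 weeks. The ApoE-KO group carried ApoE-/- alone, and the DKO group carried Ucp1-/- and ApoE-/-, so that loss of apolipoprotein E, which raises plasma cholesterol, and the fatty diet were shared by both groups. RNA of 3 mice of each genotype was mixed and measured on 1 Affymetrix whole-transcript array per genotype. Variation among mice still enters each pool but cannot be measured after mixing. Differences are therefore described by size and carry neither an error nor a p-value.

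Acyl-CoA thioesterases split an acyl-CoA into a free fatty acid and coenzyme A, which reverses the activation step that acyl-CoA synthetases carry out. Separate enzymes work in the mitochondrial matrix, the cytosol and the peroxisome, and so set the balance of acyl-CoA, free fatty acid and free coenzyme A in each place. Several are targets of the nuclear receptor PPARα in liver, and Acot11 was first described as a thioesterase of brown fat that cold induces.

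All 10 genes had a higher intensity in the DKO-labelled array, by 1.05-fold to 4.91-fold. A 2-fold limit was passed upward by 4 of the 10 genes, Acot11, Acot2, Acot4 and Acot13, and downward by 0. Of all 19938 named genes, 1.51% passed it upward and 0.527% downward. The 4 genes came from all 3 compartments, with 2 of 3 mitochondrial genes, 1 of 4 cytosolic genes and 1 of 3 peroxisomal genes. The other 6 genes differed by less than 2-fold. Differences are given throughout as log2 of the intensity in the DKO-labelled array minus log2 of that in the ApoE-KO-labelled array, with no pseudocount.

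To set low values apart, a floor was set at an intensity of 196.9, the median over named probe sets of the mean of both arrays on the log2 scale, and values under it were not told apart from background. By that mean, 7 of the 10 genes lay on or above the floor, and Acot1, Acot3 and Acot12 lay below it. Of the 9891 genes on or above the floor, 2.79% were at least 2-fold higher and 0.698% at least 2-fold lower in the DKO-labelled array. Of the 7 thioesterase genes there, 4 were at least 2-fold higher, but 3 of the 7 (Acot4, Acot8 and Acot11) passed the floor only through the DKO-labelled array and lay below it in the other. A gene that passes in this way had to differ, so this count supports nothing by itself. With the floor asked of each array, 4 of the 10 genes were left (Acot2, Acot7, Acot9 and Acot13), of which Acot2 and Acot13 were at least 2-fold higher, beside 2.59% of 9432 genes. A 3-fold limit was passed by Acot11, Acot2 and Acot4, beside 0.526% of the 9891 genes, but with the floor as the lowest value Acot4 came to 2.995-fold, just short of it, and Acot11 to 3.73-fold. The median difference of all 10 was 0.68, beside -0.01 for all named genes, and became 0.28 when values below the floor were set to it, which sets the 3 genes below it to 0. Before that step, 46.4% of named genes were higher in the DKO-labelled array.

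**Figure D1:**
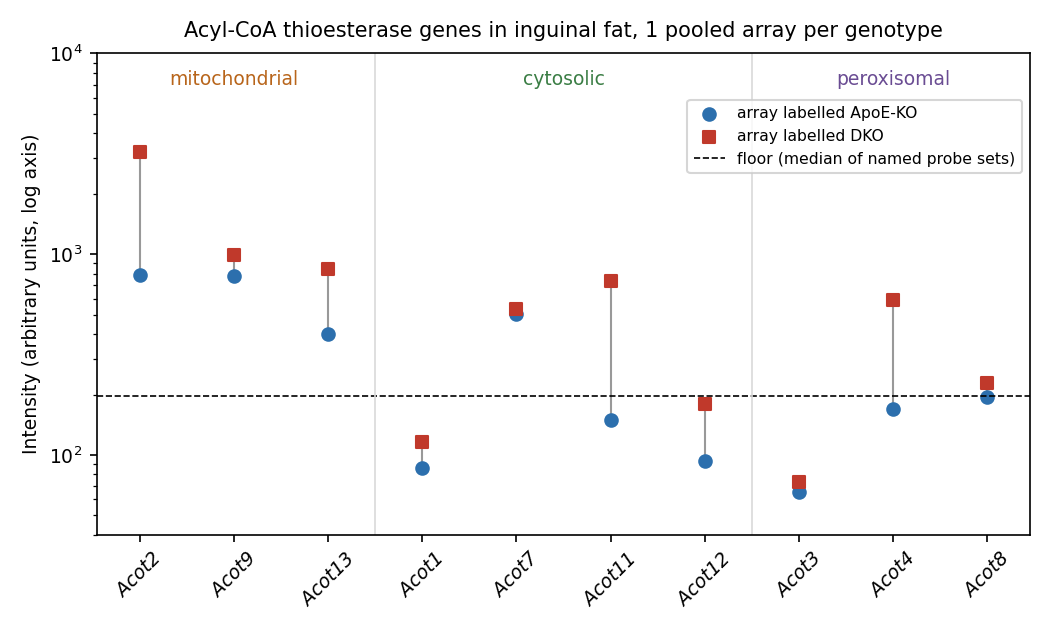
Intensity (arbitrary units, log axis) of the probe set of each of the 10 thioesterase genes, grouped by compartment, with circles for the ApoE-KO-labelled array and squares for the DKO-labelled array, 1 array of pooled RNA each. Acot2, Acot11, Acot4 and Acot13 show the wide gaps, Acot7 has nearly equal values of 531 and 504, and Acot1, Acot3 and Acot12 stay under the dashed floor of 196.9 in both arrays.

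The labels were read against the targeted genes first. The Ucp1 probe set read 2229.9 in the DKO-labelled array and 219 in the ApoE-KO-labelled array, so its signal was higher where the label says that UCP1 is lacking. The sources used here do not place these probes relative to the disrupted exons, so the arrays are named by their labels, and every direction rests on them. Apoe, disrupted in both groups, had 502 and 589. Adipocyte identity was plain in both arrays: all 13 measured markers of mature adipocytes lay above the floor, the lowest at 1486, with a median difference of 0.05. Of these markers, 8 were higher and 5 lower, from -0.60 for Plin4 to 1.19 for Gpd1, and Gpd1 alone was at least 2-fold apart. Of the marker lists, that of skeletal muscle had the largest median difference, with 21 of 21 lower in the DKO-labelled array, a median difference of -3.99 and a summed intensity of 4279.8 against 48594.5. Brown and beige markers summed to 30141.3 against 5822.6, and 13 of the 17 measured were at least 2-fold higher, Ucp1 among them. Of the 13, Elovl3, Dio2 and Slc27a2 lay below the floor in the ApoE-KO-labelled array. The other markers, named after their values were seen, were Prdm16 (0.125), Tbx1 (-0.045), Ebf2 (-0.21) and Tmem26 (-0.23, below the floor in both arrays). No marker in these lists was at 0. The part of muscle RNA or of brown and beige adipocytes in the thioesterase values was not tested, and with bulk RNA a change in the number of cells of a type and a change in RNA per cell cannot be told apart.

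In mitochondria, Acot2 had the larger difference. Acot2, the matrix enzyme that hydrolyses long-chain acyl-CoA, had an intensity of 3221 in the DKO-labelled array and 792 in the ApoE-KO-labelled array. The difference was 2.02, or 4.07-fold, and took rank 23 of the 9891 genes on or above the floor, or rank 20 with the floor as the lowest value. Both values stood above the floor, so the size does not rest on a value near background. Acot13, also called Them2, is found with mitochondria and in the cytosol, and works with the phosphatidylcholine transfer protein Pctp. Its intensities were 847 and 399, a difference of 1.09 or 2.12-fold, at rank 218. Acot13 was the gene nearest to the 2-fold limit among the 4 that passed, and an offset of 50 added to each intensity brought it to 0.998, just under. Acot9, a matrix enzyme of broad chain length, had 995 and 777, a difference of 0.36. That is a 1.28-fold difference, and 85.0% of genes on or above the floor had a lower value. The 3 mitochondrial genes had a median difference of 1.09.

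The cytosolic genes differed widely among themselves. Acot11, known as Them1 or BFIT, hydrolyses long-chain acyl-CoA and carries a lipid-binding START domain. Its intensity was 733 in the DKO-labelled array and 149 in the ApoE-KO-labelled array. The difference was 2.30, or 4.91-fold, but the lower value lay under the floor, which put in its place gives 1.90, or 3.73-fold. On that scale Acot11 took rank 26 of 9891, behind Acot2 at rank 20. Acot7, an enzyme best known from brain that prefers long-chain substrates such as arachidonoyl-CoA, had 531 and 504. Its difference of 0.07 was the smallest of the 7 genes on or above the floor, and both values were over it. Acot12, the acetyl-CoA hydrolase of liver cytosol, had 179 and 93.3, a difference of 0.94. Acot1, the cytosolic long-chain enzyme closest in sequence to Acot2, had 116 and 86.4, a difference of 0.43. Acot12 and Acot1 lay below the floor in both arrays, so neither value was told apart from background. The median difference of the 4 cytosolic genes was 0.68, which became 0.04 with the floor as the lowest value.

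Of the peroxisomal genes, 1 of 3 stood out. Acot4, which hydrolyses succinyl-CoA and other dicarboxylyl-CoA esters left by peroxisomal chain shortening, had an intensity of 589.7 in the DKO-labelled array and 169 in the ApoE-KO-labelled array. The difference was 1.81, or 3.50-fold, and 1.58 at rank 46 when the floor replaced the lower value. Acot8, a peroxisomal enzyme that accepts a wide range of acyl-CoA and bile acyl-CoA esters, had 227 and 194, a difference of 0.23. Acot3, a peroxisomal long-chain enzyme, had 73.2 and 65.6, a difference of 0.16 with both values below the floor. The median over the 3 genes was 0.23, the value of Acot8, and does not show the larger difference of Acot4. With the floor as the lowest value, Acot8 had 0.21 beside the 1.58 of Acot4, and Acot3 could not be placed.

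**Figure D2:**
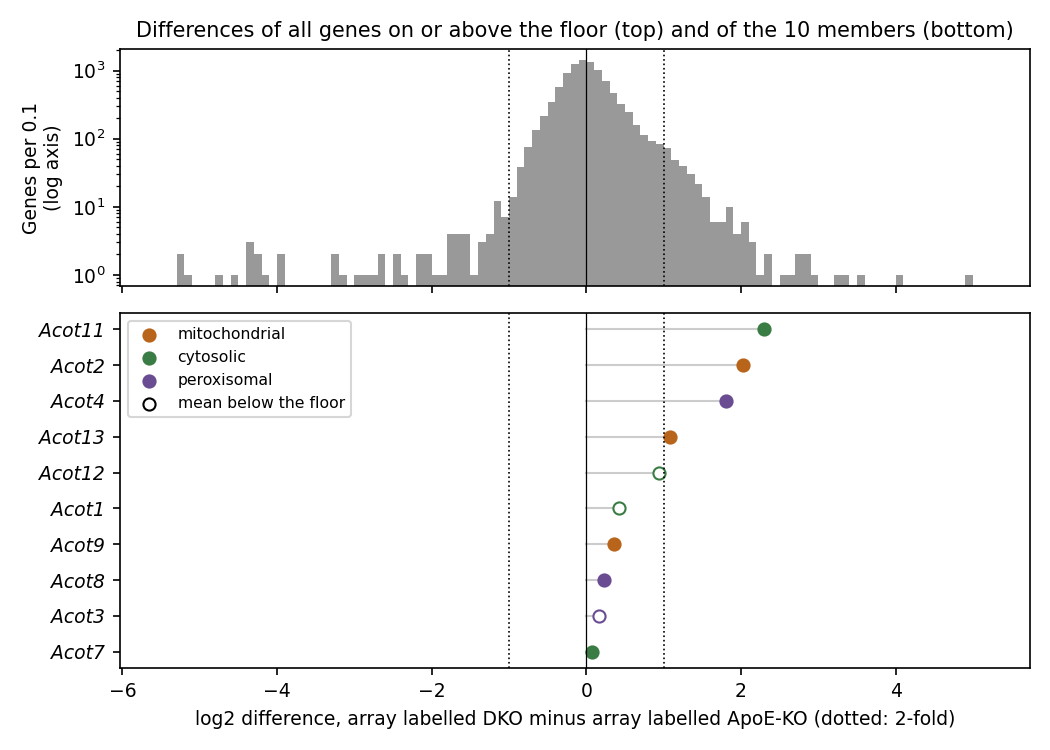
Top, the number of genes on or above the floor in each bin of 0.1 of the log2 difference (log axis). Bottom, the differences of the 10 thioesterase genes, coloured by compartment, with open circles for the 3 genes whose mean lay below the floor. Dotted lines mark 2-fold. Acot11, Acot2 and Acot4 lie between 1.81 and 2.30 (1.58 to 2.02 if the floor replaces lower values), to the right of most genes in the distribution, whose middle 90% runs from -0.52 to 0.76.

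Of the 10 genes, 4 (Acot2, Acot1, Acot4 and Acot3) are neighbours on mouse chromosome 12, in a row that continues with Acot5 and Acot6. These genes arose by duplication and encode alike enzymes that are sent to different compartments. Along the row, the differences were 2.02 for mitochondrial Acot2, 0.43 for cytosolic Acot1, 1.81 for peroxisomal Acot4 and 0.16 for peroxisomal Acot3. Acot1 and Acot3 lay below the floor in both arrays, so their small values are not a measured contrast with Acot2 and Acot4. Acot5, a further peroxisomal enzyme, had intensities of 68.2 and 37.0, a difference of 0.88 with both values under the floor. Acot6 had 222 and 158, a difference of 0.49, with only the DKO-labelled array above the floor. The genes on the outer sides of the row were Heatr4 (0.11) and Riox1 (0.00) before Acot2, and Dnal1 (-0.16) and Pnma1 (-0.29) after Acot6. All 4 lay below the floor in both arrays, so whether they differed could not be read. Only the nearest named gene on each side was planned, and the further ones were named after their values were seen. Within the row, at least 2-fold differences were thus found for Acot2 and Acot4 alone. The probes of near-identical paralogs can read each other's transcripts, and the sources used here give no probe positions, so values of this row are uncertain to that degree.

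**Figure D3:**
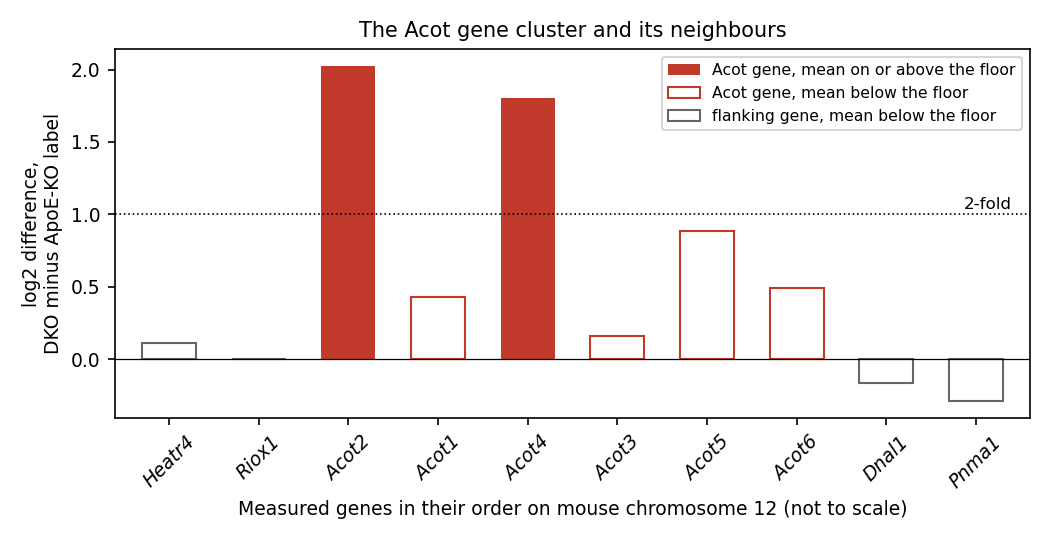
log2 difference (DKO-labelled array minus ApoE-KO-labelled array) of the 6 Acot genes in a row on chromosome 12 and of 2 measured genes on each side, in gene order and not to scale. Filled bars are genes whose mean lay on or above the floor. Acot2 (2.02) and Acot4 (1.81) reach beyond the dotted 2-fold line. The open bars are from genes whose mean lay below the floor. Their values are not told apart from background, except for Acot6 in the DKO-labelled array (222), which lay above the floor.

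The stretch before the start of transcription is shown for the 3 genes with the largest differences (Acot11, Acot2 and Acot4), for Acot1 as the neighbour of Acot2, and for Acot12. The sequences are the 250 bases before each annotated start, 5′ to 3′ on the gene's strand, from RefSeq on GRCm38.p6, and Acot11 has 2 annotated starts. Capitals mark a match to the DR1 element bound by PPAR with RXR, which is the hexamer AGGTCA repeated in the same direction with 1 base (N) between, on either strand and with up to 2 mismatches in the repeated hexamers.
Acot11, first start, chr4:106805008-106805257, minus strand: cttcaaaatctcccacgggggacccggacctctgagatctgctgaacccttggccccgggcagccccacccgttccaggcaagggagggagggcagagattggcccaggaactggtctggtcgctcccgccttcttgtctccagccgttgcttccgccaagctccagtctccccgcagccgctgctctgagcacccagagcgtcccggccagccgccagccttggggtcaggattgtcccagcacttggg
Acot11, second start, chr4:106799832-106800081, minus strand: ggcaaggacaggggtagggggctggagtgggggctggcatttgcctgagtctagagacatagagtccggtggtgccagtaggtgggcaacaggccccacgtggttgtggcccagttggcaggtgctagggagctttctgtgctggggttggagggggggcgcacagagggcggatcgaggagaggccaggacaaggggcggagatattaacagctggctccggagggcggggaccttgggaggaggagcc
Acot2, chr12:83987611-83987860, plus strand: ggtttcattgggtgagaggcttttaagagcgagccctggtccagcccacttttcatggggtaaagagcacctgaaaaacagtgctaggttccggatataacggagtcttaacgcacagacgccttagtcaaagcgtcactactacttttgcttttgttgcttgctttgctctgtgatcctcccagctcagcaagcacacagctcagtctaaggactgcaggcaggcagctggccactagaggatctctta
Acot1, chr12:84009252-84009501, plus strand: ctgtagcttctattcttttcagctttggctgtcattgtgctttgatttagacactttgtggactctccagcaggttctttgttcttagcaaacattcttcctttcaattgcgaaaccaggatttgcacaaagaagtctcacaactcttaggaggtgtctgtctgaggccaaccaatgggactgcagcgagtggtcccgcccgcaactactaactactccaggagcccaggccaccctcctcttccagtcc
Acot4, chr12:84038129-84038378, plus strand: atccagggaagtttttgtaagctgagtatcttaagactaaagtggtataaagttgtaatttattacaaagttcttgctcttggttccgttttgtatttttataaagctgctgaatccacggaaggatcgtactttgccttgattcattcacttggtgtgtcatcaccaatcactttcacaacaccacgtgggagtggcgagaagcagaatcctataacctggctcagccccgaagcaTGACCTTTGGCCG
Acot12, chr13:91741271-91741520, plus strand: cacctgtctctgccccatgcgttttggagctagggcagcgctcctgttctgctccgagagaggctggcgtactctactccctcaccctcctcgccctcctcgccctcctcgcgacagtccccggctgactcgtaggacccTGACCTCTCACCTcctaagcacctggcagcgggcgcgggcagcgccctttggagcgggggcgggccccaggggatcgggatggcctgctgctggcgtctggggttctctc

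Such matches were searched in windows of 300 bases, from 250 before to 50 after a start, and 3.86% of 32851 promoters in the table held at least 1. The table held 11 promoters of 9 of the 10 genes, all but Acot13. A match was found in 2 of the 11, those of Acot4 and Acot12. In Acot4 the match had 2 mismatches and ended at the last base before the annotated start. In Acot12 it had 1 mismatch and lay 98 to 110 bases before the start, and 0.554% of all promoters held a match that close. Both were on the opposite strand to the gene. The windows of Acot2 and Acot11, with differences as large as that of Acot4, held no such letters, which says nothing of sites elsewhere. A match is a description of the sequence and not a binding site.

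Thioesterase genes outside the 10 overlapped with them in size. Of 14 other genes that were measured, 10 were higher and 4 lower in the DKO-labelled array, 0 were at least 2-fold apart, and the median difference was 0.39. Of the 14, 8 lay on or above the floor, and the median became 0.07 with the floor as the lowest value. The 4 lower genes were Ppt1 (-0.05, with 1089 and 1130), Them6 (-0.05), Baat (-0.15, below the floor in both arrays) and Them5. Hibch, the mitochondrial 3-hydroxyisobutyryl-CoA hydrolase of valine breakdown, had 2055 and 1032, a difference of 0.99 just under 2-fold. Lypla1, which removes palmitate from proteins, had 0.80, the depalmitoylase Abhd10 of mitochondria 0.52 and the lysosomal thioesterase Ppt2 0.42. Acot10, a mouse gene closely related to Acot9, had 332 and 258. Its difference of 0.37 was close to the 0.36 of Acot9, and with such alike sequences the signals of this pair may not be separate. Them4 and Them5, mitochondrial enzymes of the same fold as Acot13, stood at 0.64 and -0.20, both with low values (187 and 119, and 54.0 and 62.0). Pctp, the partner of Acot13, had 286 and 192, a difference of 0.58.

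Enzymes that break down coenzyme A itself were measured beside them. Nudt7, the peroxisomal hydrolase that cuts coenzyme A and its esters, had 990.4 in the DKO-labelled array and 437 in the ApoE-KO-labelled array, a difference of 1.18. Nudt19, also peroxisomal, had 0.72 and the mitochondrial Nudt8 had 0.31. Acnat1 and Acnat2, peroxisomal relatives of Acot1 of which the first joins fatty acids to taurine, stood at 0.02 and -0.11 with values under the floor.

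The opposite reaction, the activation of fatty acids, was read from 14 measured acyl-CoA synthetase genes of 16 listed. Acsl1 was not among the 14. Among them 6 passed 2-fold upward and 0 downward, with a median difference of 0.41. The difference of Slc27a2, a very-long-chain synthetase, was 4.06 (3.78 with the floor as the lowest value). Slc27a2 is also counted among the brown and beige markers. Acsm3, a medium-chain synthetase, had 1.38, Acsf3, the malonyl-CoA synthetase of mitochondria, 1.34 and Acss1, the mitochondrial acetyl-CoA synthetase, 1.32. The long-chain synthetase genes Acsl4, Acsl5 and Acsl6, named after their values were seen, had 0.21, 0.60 and -0.04. Acsl6 lay below the floor in both arrays.

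The pathways that share these acyl-CoA pools had medians of their own. For mitochondrial fatty acid oxidation, 15 of 21 measured genes passed 2-fold upward and 0 downward, and the median difference was 1.26. Acaa2, the thiolase, and Acadvl, which starts the oxidation of long chains, both had 2.13, and Slc25a20, the carnitine carrier, had 2.01. The 2.02 of Acot2 lay in the same range, whereas the 0.36 of Acot9 lay near the lowest of the 21 genes (0.20). For peroxisomal oxidation, 6 of 15 measured genes passed 2-fold upward and 0 downward, and the median was 0.79. Ehhadh, the bifunctional enzyme that peroxisomes also use for dicarboxylic acids, had 1.89, the fatty acid transporter Abcd3 1.84, Hacl1 of alpha-oxidation 1.54 and the thiolase Acaa1b 1.42. Acot4 at 1.81 (1.58 with the floor as the lowest value) lay beside the upper members of this list, and Acot8 (0.23) beside its lower ones. Acot3 (0.16) lay below the floor in both arrays, so its place could not be read. These lists were written with earlier results of the same arrays known, and no difference between a list and the thioesterases was tested.

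Of 13 genes for PPARs, their partners, estrogen-related receptors and cofactors, 4 passed 2-fold upward and 0 downward, 3 were lower by less, and the median was 0.31. Ppara, the receptor through which liver Acot genes respond to fasting, had 1009 in the DKO-labelled array and 243 in the ApoE-KO-labelled array, a difference of 2.06. The coactivator genes Ppargc1a and Ppargc1b had 1.44 and 1.23, and Esrrg had 1.13 (0.94 with the floor as the lowest value). Ppargc1a is also counted among the brown and beige markers. Pparg, the receptor of adipocyte differentiation, had 0.47. The lower genes, named after their values were seen, were the corepressor gene Nrip1 (-0.64), Rxra (-0.22) and Ppard (-0.21). Of 17 measured PPAR target genes, 9 passed 2-fold upward and 0 downward, with a median of 1.06. Among them the kinase gene Pdk4 had 2.07, the fatty acid-binding protein gene Fabp3 3.59 and the lipid droplet protein gene Cidea 2.90. The lists share genes: of the 9, only Pdk4 and Plin2 (1.25) stood in no oxidation or brown and beige list. The count of 9 is therefore not separate from the counts of those lists. Angptl4 was lower (-0.35), and Vnn1 (0.01), Fabp4 (0.06), Cd36 (0.09) and Lpl (0.21) differed little. Plin2 and these genes were named after their values were seen.

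**Figure D4:**
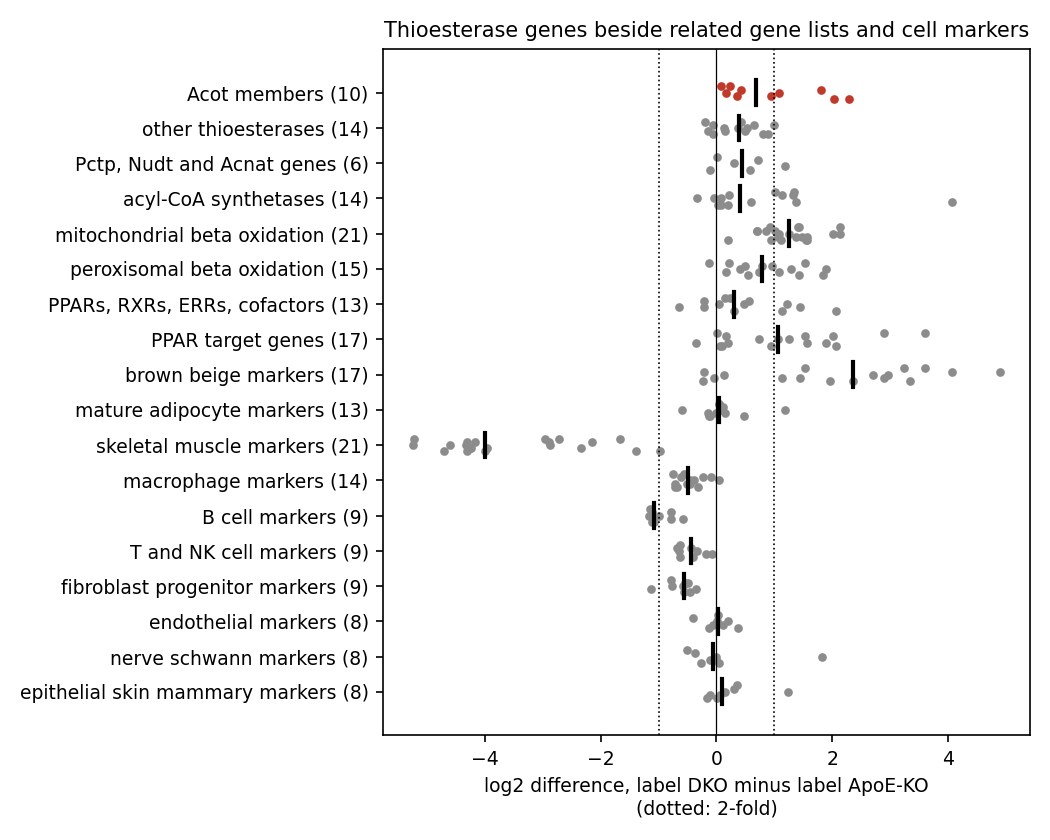
log2 difference (DKO-labelled array minus ApoE-KO-labelled array) of each gene in the thioesterase family (red), in related lists and in cell type markers (grey), with the number of measured genes in parentheses and a black bar at the median. The thioesterases have a median of 0.68, mitochondrial fatty acid oxidation 1.26, mature adipocyte markers 0.05 and skeletal muscle markers -3.99.

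Other cell types of the depot moved the other way or little. Of 14 macrophage markers, 13 were lower in the DKO-labelled array, with a median of -0.49. B cell markers had a median of -1.08 with 9 of 9 lower, T and NK cell markers -0.44 with 9 of 9 lower, and fibroblast and progenitor markers -0.55 with 9 of 9 lower. Endothelial markers had a median of 0.02, with 8 of 8 above the floor. Of the 8 nerve and Schwann cell markers, 4 lay above the floor, S100b with 1.83 (1.12 with the floor as the lowest value), Uchl1 with -0.51, Mbp with -0.27 and Sox10 with -0.12. Epithelial markers, with 1 of 8 above the floor, were too low to be read. How these cells bear on the thioesterase values was not tested.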

How the data were processed

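Pooled RNA of inguinal fat was measured on 2 arrays, 1 per genotype. The authors deposited 1 linear intensity per probe set and array (35557 probe sets, with column medians of 152.1 for the DKO-labelled and 157.65 for the ApoE-KO-labelled array). Per the labels' protocols, RNA was extracted with Trizol and biotin-labelled as fragmented DNA. The sources used here name no background correction, summarisation or scaling. The number of arrays limits the precision, and no test is possible between single arrays.

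The platform annotation gave 1 gene symbol for 21789 probe sets. Of several probe sets of a gene, the one with the highest mean was used. Among the genes named here, Fabp3, Ppargc1a and Heatr4 had 2 probe sets each, and the values of the other one are not given. All 10 thioesterase genes matched RefSeq (GRCm38.p6) by Entrez identifier, which gave names and gene order. The members, compartments and lists were chosen with earlier results of these data known. Named were all members, other thioesterases and partners, Ucp1, Apoe, Ppara, Pparg, Ppargc1a, the genes beside the row on chromosome 12 and, from each list, up to 4 genes on or above the floor with the largest absolute differences. A planned comparison of proteins was not run. The calculation was tested on simulated data with Python 3.11.15. Alternatives were quantile normalization, median centring, loess (statsmodels 0.14.6, span 0.4), an offset of 50, the mean of probe sets, other floors, thresholds and compartments.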

Additional observations from a re-analysis of the deposited data

How the results depend on the processing

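No member changed sign under other scalings, and Acot2 (1.96 to 2.06), Acot11 (1.90 to 2.33) and Acot4 (1.55 to 1.84) stayed beyond 2-fold under quantile normalization, median centring, loess, an offset of 50, the mean of probe sets and the floor as the lowest value. The mean of probe sets cannot move a member, since each has 1. An offset of 50 brought Acot13, and with it the mitochondrial median, from 1.09 to 0.998. With values below the floor set to it, Acot12 became 0, as Acot1 and Acot3 did, the median of the 10 members 0.282, the cytosolic median 0.037 and the muscle marker median -3.27. With the members on or above the floor alone, the cytosolic and peroxisomal medians were 1.186 and 1.017. Each of these is a median of 2 genes. Acot11, Acot4 and Acot8 among them passed the floor only through the DKO-labelled array, so the rise is partly built in and supports nothing. The count of 4 members at least 2-fold higher was 3 at 3-fold and with the offset, 2 (Acot2 and Acot11) at 3-fold with the floor as the lowest value, and 2 (Acot2 and Acot13) with the floor at percentile 75 or reached in each array, where fewer genes are tested. Over all genes the count of 276 became 52 at 3-fold, 223 with the offset and 45 at 3-fold with the floor as the lowest value. It was 210 with the floor at percentile 75 and 244 with it reached in each array. With Acot13 counted as cytosolic, or Acot7 and Acot11 as mitochondrial, the compartment medians stayed on the same side of 2-fold. No paired analysis was possible because each group is 1 array. The floor in each array, 3-fold with the floor as the lowest value and the members' median under these settings were added after seeing the data. A loss of 1 array leaves no comparison, and the spread between mice stays unmeasured.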
